A study of Mus musculus with 15 samples.

Results

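Hif1a siRNA 6 (Si6), a small interfering RNA against the oxygen-regulated subunit of the transcription factor HIF-1, was compared with a negative control (NC) in mouse melanocytes grown at low oxygen. The 3 Si6 arrays and the 3 NC arrays were taken by their labels, and they are 6 of the 15 arrays in the series. The other 9 arrays, 3 per group, are cells in normoxia, a plain hypoxia control and a second Hif1a siRNA, Si1. These 9 arrays enter here as reference, in the choice of each gene's probe set and in the estimate of its spread. All 15 arrays hold RNA of 1 immortal melanocyte line, melan-Ink4a-Arf-1, derived from Cdkn2a tm1RDp/tm1RDp mice, so controls and treated cells alike lack the Ink4a and Arf tumour suppressors. Both groups were kept at 1% O2, 5% CO2 and 94% N2 for 24 h in RPMI with 10% serum, 200 nM TPA (a phorbol ester) and 200 pM cholera toxin. The siRNA was transfected 24 h before hypoxia. What the NC cells received is not given in the sources used here. Normoxic cells were at about 21% O2 with 10% CO2, so oxygen and carbon dioxide differ together between normoxia and hypoxia. The series calls its arrays biological triplicates, and this number of arrays sets how small a difference can be resolved.

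HIF-1 is a pair of Hif1a and Arnt proteins. At normal oxygen the Egln prolyl hydroxylases mark Hif1a protein for destruction through the Vhl ubiquitin ligase, and at low oxygen the protein escapes this, enters the nucleus and binds hypoxia response elements near its target genes. Its known targets supply glycolysis, mitophagy, angiogenic signals and collagen modification, and include the Egln enzymes themselves. An siRNA acts on the mRNA, so these arrays show how far the mRNA was lowered and which mRNAs moved with it, not the protein.

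The promoters below are examples from genes that fell or rose strongly with Si6, picked because their window in the RefSeq promoter table holds a match to a motif of interest. Other strongly changed genes hold none: the windows of Pcsk6 and Vldlr, which fell more than Car9, had 0 matches to the hypoxia motif, and those of Rrm2, Adh7 and Slc20a1, which rose more than Asns, had 0 matches to the amino acid motif. Each runs 5′ to 3′ on the gene's strand, from 250 bases before to 50 bases after the annotated start (RefSeq, GRCm38.p6). Capitals mark every match, on either strand, to the core of the hypoxia response element, ACGTG or GCGTG, in the first 4. Bnip3 is at chr7:138909457-138909756 on the minus strand with 5 matches, Egln3 at chr12:54203825-54204124 on the minus strand with 1, Car9 at chr4:43506776-43507075 on the plus strand with 1 and Fam162a at chr16:36071512-36071811 on the minus strand with 6. In the last pair, of genes that rose, capitals mark the core of the amino acid response element bound by Atf4 and its partners, TGATGNAA, with 1 match each. Asns is at chr6:7693160-7693459 on the minus strand and Chac1 at chr2:119350992-119351291 on the plus strand.
Bnip3: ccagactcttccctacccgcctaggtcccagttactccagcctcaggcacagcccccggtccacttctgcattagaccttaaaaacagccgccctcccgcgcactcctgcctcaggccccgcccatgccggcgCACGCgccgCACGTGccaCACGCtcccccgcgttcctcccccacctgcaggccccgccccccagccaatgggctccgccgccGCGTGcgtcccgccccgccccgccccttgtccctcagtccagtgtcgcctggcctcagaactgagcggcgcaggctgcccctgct
Egln3: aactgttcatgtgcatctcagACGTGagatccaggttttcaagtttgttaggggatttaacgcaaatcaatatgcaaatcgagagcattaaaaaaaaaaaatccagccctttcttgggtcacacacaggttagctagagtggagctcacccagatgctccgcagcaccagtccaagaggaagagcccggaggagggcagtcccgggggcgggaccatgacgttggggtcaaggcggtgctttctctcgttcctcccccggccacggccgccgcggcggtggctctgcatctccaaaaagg
Car9: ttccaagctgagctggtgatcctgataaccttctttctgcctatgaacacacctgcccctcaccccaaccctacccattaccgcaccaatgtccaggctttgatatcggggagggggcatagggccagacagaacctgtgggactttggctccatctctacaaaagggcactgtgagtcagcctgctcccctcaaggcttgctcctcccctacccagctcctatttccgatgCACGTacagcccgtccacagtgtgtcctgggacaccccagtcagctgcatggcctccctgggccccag
Fam162a: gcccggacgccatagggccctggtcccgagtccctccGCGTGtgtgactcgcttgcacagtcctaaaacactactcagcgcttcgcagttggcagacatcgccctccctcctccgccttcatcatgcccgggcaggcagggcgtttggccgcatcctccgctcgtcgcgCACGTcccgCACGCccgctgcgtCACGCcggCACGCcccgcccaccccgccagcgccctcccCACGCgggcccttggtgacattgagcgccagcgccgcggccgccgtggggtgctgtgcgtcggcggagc
Asns: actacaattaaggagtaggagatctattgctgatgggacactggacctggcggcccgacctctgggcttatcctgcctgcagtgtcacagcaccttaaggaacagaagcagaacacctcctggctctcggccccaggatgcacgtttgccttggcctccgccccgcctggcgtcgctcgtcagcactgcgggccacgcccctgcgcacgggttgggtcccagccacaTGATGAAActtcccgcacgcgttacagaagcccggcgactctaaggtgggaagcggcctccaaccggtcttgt
Chac1: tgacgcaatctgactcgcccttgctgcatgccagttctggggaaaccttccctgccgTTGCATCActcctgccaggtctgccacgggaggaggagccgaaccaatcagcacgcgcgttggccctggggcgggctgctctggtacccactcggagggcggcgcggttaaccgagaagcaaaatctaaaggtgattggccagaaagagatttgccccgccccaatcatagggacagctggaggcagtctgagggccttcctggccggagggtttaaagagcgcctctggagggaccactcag

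A core of the hypoxia response element is common in such windows. It was found in 50.1% of all 20611 windows of 16990 measured genes, in 56.8% of 176 windows of genes at least 2-fold lower with Si6, and in 71.2% of 59 windows of genes at least 2-fold higher. A gene can have several windows. Counted by gene, any window of 53.1% of all genes held it, against 67.2% of the 128 lower and 73.6% of the 53 higher genes. Among genes with 1 window the shares were 49.1%, 61.7% and 72.3%. Among glycolysis genes 80.8% of 26 windows held the core (21 windows). It was also in 100% of the 11 windows of tRNA synthetases, a list that mostly rose with Si6. In stress response and amino acid transport genes, which also mostly rose, it was in 65% of 20 windows. The letters ACGTG also lie within the E-box CACGTG, bound by other factors, which counts as a match on both strands. TGATGNAA was found in 3.39% of all windows, in 11.9% of windows of genes at least 2-fold higher (7 of 59) and in 0.568% of windows of genes at least 2-fold lower (1 of 176). In the list of stress response and amino acid transport genes described below, 40% of windows held it (8 of 20), and in that of tRNA synthetases 36.4% (4 of 11). Of the 8 windows, 1 is that of Vldlr, which fell with Si6, and it is also the 1 of 176. These matches are descriptions of letters in a window and not of binding.

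The arrays of each group lay close together. Across all 41345 probe sets, pairs of Si6 arrays correlated at 0.9931 to 0.9953, pairs of NC arrays at 0.9939 to 0.9949, and pairs of 1 Si6 and 1 NC array at 0.9863 to 0.9895. Values are log2 intensities normalized by the authors; the array medians were 6.52 to 6.61. All 7 melanocyte markers were measured and bright, with means of 10.43 to 13.06 over the 15 arrays. Their mean log2 level per array was 11.55 to 11.67 with NC and 11.76 to 11.83 with Si6, and 3 of the 7 were higher with Si6. Markers of keratinocytes, endothelium and leukocytes lay at means of 4.03 to 8.56, and 0 of their 16 measured genes passed the test. Of 6 fibroblast markers, 1 was higher and 2 were lower. Of 6 smooth muscle markers, 1 was higher and 1 was lower. Of 6 Schwann cell markers 3 were measured, Mbp, Pmp22 and Erbb3, and all 3 were lower (median log2 difference -0.36). All arrays hold 1 melanocyte line, in which Pmp22 and Erbb3 were bright (means of 11.44 and 11.17). Erbb3 is also in the list of melanocyte receptors below. In bulk RNA, fewer cells of a type and less RNA per cell cannot be told apart.

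Si6 lowered Hif1a mRNA to 30.7% of the NC level. The Hif1a log2 intensity was 10.68, 10.66 and 10.56 on the NC arrays and 8.90, 8.91 and 8.98 on the Si6 arrays, and the groups did not overlap. The difference, Si6 minus NC, was -1.70 ± 0.056 (limma standard error, n = 3 per group; adjusted p = 1.84e-11), a 3.26-fold fall. It also took Hif1a below the normoxic level, by 1.41. A second, dimmer Hif1a probe set, at a mean of 5.40, was at -0.07 (adjusted p = 0.538) and did not show the fall; the mean of both probe sets fell by 0.89. All differences below are Si6 minus NC on the log2 scale with limma's standard error unless another contrast is named, and a gene is called changed where limma's adjusted p over all 22180 genes is under 0.05.

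Of the 22180 genes, 6400 changed, 3770 higher (17%) and 2630 lower (11.9%). Large changes from NC were more often falls: 162 genes were at least 2-fold lower (0.73%) and 63 at least 2-fold higher (0.284%), and the extremes were -4.02 and 1.94. With the hypoxia control in place of NC that balance turned over: 255 genes rose 2-fold or more and 161 fell as far. The median standard error of a gene was 0.0756 and the median difference of all genes was -0.01. The share of changed genes that were higher, 58.9% as deposited, was 53.8% after a second quantile normalization and 68.2% after centring each array on its median, so the excess of rises among small changes moves with the scaling.

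Oxygen sensing genes fell in part with Hif1a. Of 11 measured genes of the HIF subunits and their regulators, Hif1a included, 6 fell and 2 rose, with a median of -0.25. Egln3, a prolyl hydroxylase that HIF-1 itself induces, read 8.55, 8.76 and 8.13 on the NC arrays and 5.79, 5.75 and 5.74 on the Si6 arrays. This was a 6.57-fold fall (-2.72 ± 0.15, adjusted p = 4.17e-09) to a level 0.13 above normoxia, a difference that did not pass the test. Egln1, the main oxygen sensor, went from 11.36, 11.28 and 11.33 to 9.71, 9.75 and 9.73, a fall of 1.59. Smaller falls were seen in Cited2, which competes with HIF-1 for its coactivators (-0.39 ± 0.048), in Epas1, the HIF-2 subunit (-0.34 ± 0.083), and in Vhl (-0.25). The partner subunits rose slightly, Arnt2 by 0.26 and Arnt by 0.15. Egln2 (0.05), Hif1an, which hydroxylates an asparagine of Hif1a (0.00), and Hif3a (-0.11) did not pass the test.

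**Figure D1:**
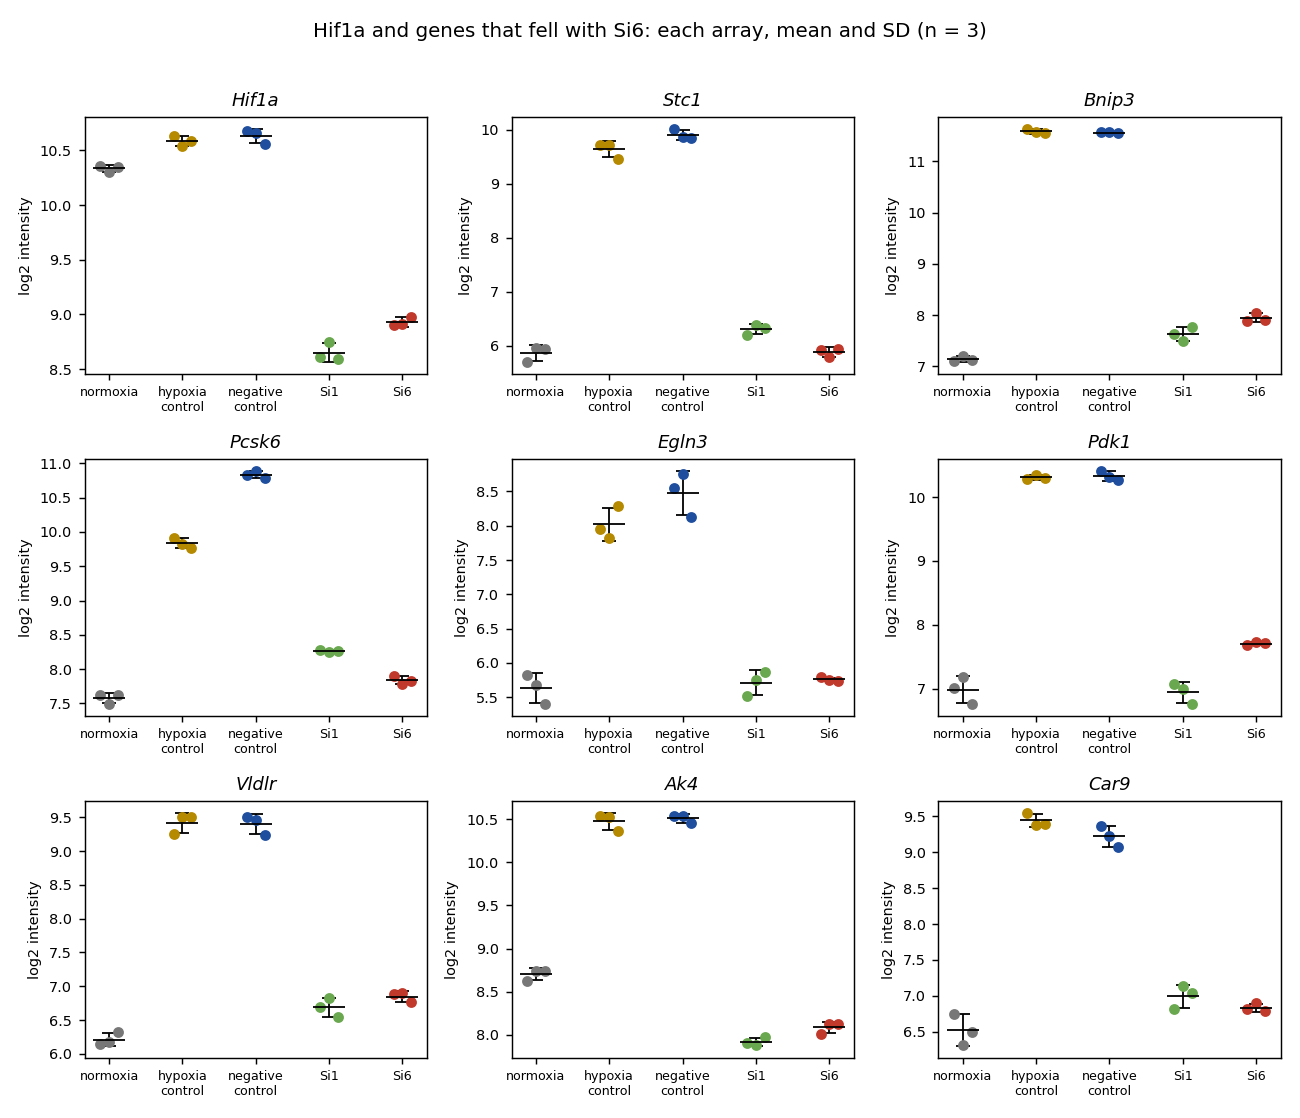
Log2 intensity on each array (points) of Hif1a and 8 of the genes that fell most with Si6, in normoxia, the hypoxia control, the negative control, Si1 and Si6; bars are the mean and SD of 3 arrays, and axes do not start at 0. In each panel the 3 Si6 arrays lie below the 3 NC arrays without overlap, from 5.79 to 5.95 against 9.85 to 10.02 for Stc1.

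The 3 largest falls, in Stc1, Prelid2 and Bnip3, were in genes that hypoxia raises strongly in these cells. Stc1, a secreted glycoprotein hormone, read 10.02, 9.87 and 9.85 with NC and 5.93, 5.79 and 5.95 with Si6. That is 16.2-fold lower (-4.02 ± 0.088, adjusted p = 1.84e-13), and Si6 cells stood 0.02 from the normoxic level. Prelid2, of a family of mitochondrial lipid carriers, went from 10.74, 10.54 and 10.60 to 6.88, 6.96 and 6.77, a 13.5-fold fall that left it 1.05 above normoxia. Bnip3, the receptor that marks mitochondria for removal, was 11.56, 11.56 and 11.55 with NC and 7.89, 8.05 and 7.91 with Si6, a 12.2-fold fall (-3.61 ± 0.068, adjusted p = 3.34e-14). The NC arrays of Bnip3 were within 0.01 of each other and all 3 Si6 arrays lay more than 3 log2 units below them. The proprotein convertase Pcsk6 fell by 3.0, from 10.83, 10.89 and 10.78 to 7.90, 7.79 and 7.82. Plekha2, a phosphoinositide-binding adaptor, fell by 2.96. The lipoprotein receptor Vldlr fell by 2.56, from 9.51, 9.46 and 9.24 to 6.88, 6.90 and 6.76. Spry3, of the Sprouty family of growth factor signalling inhibitors, fell by 2.51. A second, dimmer probe set of Plekha2 read -0.10 (adjusted p = 0.646) and did not show the fall. The transcript 8430437L04Rik, also among the 15 largest falls, was 4.93-fold lower with Si6 although hypoxia had lowered it too (-0.42); its arrays read 9.43, 9.46 and 9.37 with NC and 7.28, 7.06 and 7.01 with Si6.

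For some of these genes the NC and the plain hypoxia control differed, and the size of the fall depends on which is used. Pcsk6 was 0.99 higher with NC than in the hypoxia control, and the fall from the hypoxia control was 2.0. The interferon-inducible DNA sensor Ifi204 fell by 2.66 from NC, which itself lay 2.17 above the hypoxia control; against the latter the difference was -0.49, and Ifi204 belongs to a family of near-identical genes whose probes may share signal. The integrin Itga7, named after its values were seen, fell by 2.25 from NC, which lay 1.58 above the hypoxia control, and stood 0.66 below the latter. What in the NC cells moved these genes was not tested.

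The genes that hypoxia raised were the ones that Si6 most often lowered. Hypoxia raised 2190 genes (9.87% of all) and lowered 2474 (11.2%), comparing the hypoxia control with normoxia. Those arrays are in neither of the groups compared here, but the fit takes its estimate of the spread from all 15 arrays; fitted on the Si6 and NC arrays alone, 5789 genes changed in place of 6400. Of the 2190, Si6 lowered 1071 (48.9%) and raised 191 (8.72%); of the 2474, it raised 1459 (59%) and lowered 184 (7.44%). Among the 17516 genes that hypoxia did not change by this test, 7.85% were lower and 12.1% higher with Si6, both below the shares over all genes.

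Among the 128 genes that hypoxia raised at least 2-fold, 118 were lower with Si6 (92.2%), 0 were higher and 10 did not pass the test; 72 of them were at least 2-fold lower. Their median rise in hypoxia was 1.34 and their median difference with Si6 was -1.10. The median log2 intensity of the 128 genes was 7.56, 7.58 and 7.61 on the normoxia arrays, 9.28, 9.24 and 9.22 in the hypoxia control, 9.32, 9.29 and 9.22 with NC, and 7.98, 8.01 and 7.94 with Si6. The Si6 arrays thus lay between normoxia and both hypoxic controls, nearer to normoxia. Against the normoxia arrays, which also served to choose these genes, 83 of the 128 were still above, 8 were below and 37 did not pass the test with Si6, with a median of 0.44, while 127 were above with NC, with a median of 1.59. Over all genes, 17% were above and 13.1% below normoxia with Si6, and 14.6% were above it with NC. With the hypoxia control in place of NC, 112 of the 128 were lower with Si6 and 6 higher, with a median of -1.09; the hypoxia control arrays also served to choose these genes, so this count is a description. That comparison called 16.9% of all genes higher and 12.9% lower.

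Of the 162 genes that fell at least 2-fold with Si6, 136 were raised by hypoxia (84%), 5 were lowered and 21 were not called. Of the 63 that rose at least 2-fold, 50 were lowered by hypoxia (79.4%), 1 was raised and 12 were not called. The 30 genes that hypoxia lowered at least 2-fold were less uniform: 17 rose with Si6 (56.7%), 5 fell and 8 did not pass the test, and 23 were still below normoxia.

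**Figure D2:**
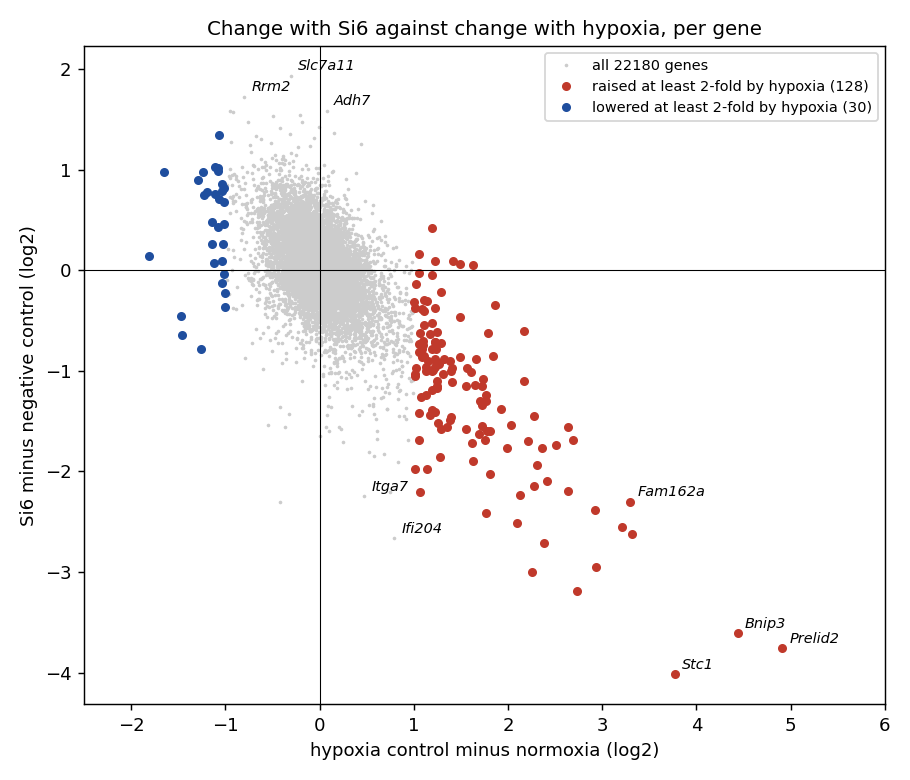
Each point is a gene: the log2 difference of the hypoxia control from normoxia (x) against that of Si6 from NC (y), with all 22180 genes in grey, the 128 raised at least 2-fold by hypoxia in red and the 30 lowered at least 2-fold in blue. The red points lie below 0 on the y axis for nearly all genes, with Stc1, Prelid2 and Bnip3 lowest; the blue points lie on both sides of 0.

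A few strongly hypoxia-raised genes did not fall. Those least lowered were Ly6f (0.42 ± 0.20), the tubulins Tubb2a (0.16 ± 0.082) and Tubb3 (0.06 ± 0.060), Mest (0.10 ± 0.079), the myelin lipid-binding protein Pmp2 (0.09 ± 0.094), the palmitoyltransferase Zdhhc2 (0.05 ± 0.067), the neuronal intermediate filament Ina (-0.02 ± 0.11), Rflnb (-0.05 ± 0.091) and Cnmd (-0.13 ± 0.13), none of which passed the test. At the other end, several hypoxia-raised genes were below normoxia with Si6: the collagen-binding integrin Itga2 by 0.83, Elobl by 0.69, the glycolytic aldolase Aldoc by 0.62, the mitochondrial adenylate kinase Ak4 by 0.61, the glycogen phosphatase Epm2a by 0.34 and Pafah1b3 by 0.32. Elobl, which resembles the elongin B partner of Vhl, fell by 1.85 with Si6. At the 2-fold limit itself, Gnptab and Mybl2 (1.0) were just inside for rises and Got1 (1.0) just outside, and Tbc1d8b (-1.0) was just inside for falls and Pcyt1b (-1.0) just outside.

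**Figure D3:**
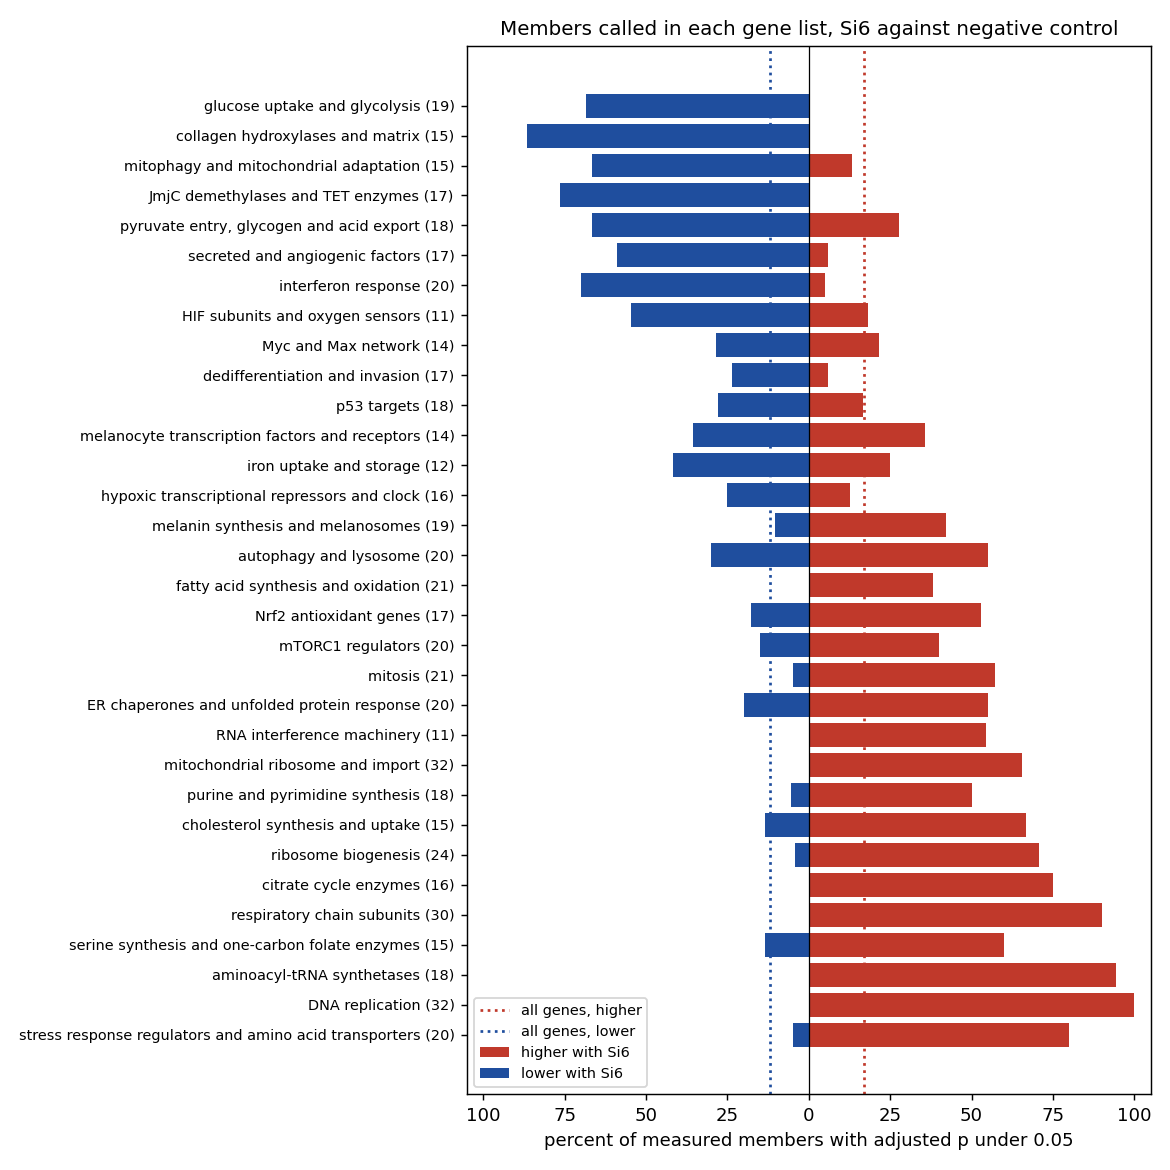
Percent of the measured members of each of 32 gene lists that were higher (red, right) or lower (blue, left) with Si6 than with NC; dotted lines mark the 17% and 11.9% of all genes. DNA replication, tRNA synthetases and the respiratory chain lie far right of the line with no lower member, and glycolysis, collagen hydroxylases and JmjC/TET enzymes far left with no higher member.

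Genes were then read in 32 lists by role; each count is set against the 17% of all genes that were higher and the 11.9% that were lower. In glucose uptake and glycolysis, 13 of 19 measured genes fell and 0 rose, with a median of -0.71. The falls included transporters, early and late enzymes of the path, but not every step measured. The glucose transporter Slc2a3 fell from 7.87, 7.91 and 7.80 to 6.11, 5.77 and 6.01 (-1.90 ± 0.073), and the far brighter Slc2a1 from 12.38, 12.35 and 12.45 to 11.46, 11.43 and 11.39 (-0.97). Hexokinase Hk2, which traps glucose in the cell, fell by 1.55 and Hk1 by 0.71. The phosphofructokinase subunits Pfkl (-1.68 ± 0.079) and Pfkp (-1.15 ± 0.052), Aldoc (-1.48 ± 0.097), Tpi1 (-0.57), Pgk1 (-0.64), Pgam1 (-1.01 ± 0.073), Pkm (-0.91) and Ldha (-0.45) fell, as did the lactate exporter Slc16a3 (-1.30 ± 0.10). The difference was 0.00 for Gapdh, -0.05 for Eno2 and Pfkfb4, 0.02 for Pfkfb3 and 0.05 for Slc16a1, none past the test. A second probe set of Slc2a1 read -0.08.

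Genes that steer pyruvate, glycogen and acid moved with glycolysis: 12 of 18 fell and 5 rose, with a median of -0.46. Pdk1, the kinase that shuts off pyruvate dehydrogenase, read 10.41, 10.31 and 10.26 with NC and 7.68, 7.73 and 7.71 with Si6, a 6.16-fold fall (-2.62 ± 0.094, adjusted p = 4e-11). Its relative Pdk3 fell by 1.07. The acid-exporting carbonic anhydrase Car9 went from 9.37, 9.22 and 9.07 to 6.81, 6.90 and 6.79, a 5.23-fold fall, and Car12 fell by 0.55. The glycogen branching enzyme Gbe1 (-2.1 ± 0.058), glycogen synthase Gys1 (-1.60 ± 0.057) and its phosphatase scaffold Ppp1r3c (-1.23 ± 0.095) fell. Second probe sets of Pdk1 (-0.05) and Car9 (-0.09) did not show the fall.

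Of 15 genes of mitophagy and hypoxic adaptation, 10 fell and 2 rose, with a median of -0.53. After Bnip3 came Fam162a, a mitochondrial protein induced by HIF-1, which read 11.30, 11.26 and 11.36 with NC and 9.03, 9.12 and 8.89 with Si6 (-2.30 ± 0.087) and stayed 1.21 above normoxia. Higd1a, a small inner membrane protein, fell by 1.73, the Myc antagonist Mxi1 by 1.03 (-0.12 by a second probe set), the mTORC1 inhibitor Ddit4 by 0.85 and the lipid droplet protein Hilpda by 0.70. Ndufa4l2, a hypoxic variant of a respiratory chain subunit, was at -0.07 and did not pass the test. Ak4, which balances adenine nucleotides in mitochondria, went from 10.53, 10.54 and 10.45 to 8.01, 8.12 and 8.13.

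Of 17 secreted factors, 10 fell and 1 rose, with a median of -0.44. The vasodilator peptide Adm went from 8.92, 8.94 and 8.91 to 6.85, 6.61 and 6.74 (-2.19 ± 0.11). Apln, the ligand of the apelin receptor, went from 9.92, 9.92 and 10.06 to 8.19, 7.83 and 7.79 (-2.03 ± 0.099). Vegfa, the principal angiogenic factor, read 10.20, 10.24 and 10.28 with NC and 9.12, 9.15 and 9.15 with Si6. It fell by 1.10 (± 0.050, adjusted p = 4.26e-10) and stayed 0.93 above normoxia; the hypoxia control was 2.17 above normoxia. The chemokine Cxcl12 fell by 1.69 and Igfbp3, a carrier of insulin-like growth factors, by 1.45. Angptl4 (-0.07) and Edn1 (-0.12) did not pass the test.

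Collagen hydroxylases and matrix genes fell in 13 of 15 cases and none rose, with a median of -0.63. The prolyl hydroxylase subunit P4ha2 fell by 1.77 and P4ha1 by 0.63, which left P4ha1 1.41 above normoxia. The lysyl hydroxylases Plod2 (-1.57 ± 0.091) and Plod1 (-0.78 ± 0.053), the lysyl oxidase Lox (-0.73 ± 0.081), Fn1 (-1.05 ± 0.054) and Col5a1 (-0.69 ± 0.079) fell; a second probe set of Col5a1 read -0.06. These hydroxylases use oxygen and 2-oxoglutarate, as do the chromatin enzymes of the next list.

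Of 17 JmjC histone demethylases and TET DNA demethylation enzymes, 13 fell and 0 rose, with a median of -0.47. Tet1, which oxidises methylated cytosine, fell by 1.58 and Tet2 by 0.57. The demethylases Kdm4b (-1.19 ± 0.060), Kdm5b (-1.17 ± 0.076), Kdm3a (-0.96 ± 0.057) and Kdm6b (-0.58 ± 0.048) fell; a second probe set of Kdm6b read -0.10. Among 16 transcriptional repressors and clock genes, 4 fell and 2 rose, with a median of -0.03 that turned to 0.01 with median centring. The clock repressor Ciart fell by 1.15, Arntl, the partner of Clock, by 0.81, Bhlhe40 by 0.31 and Per1 by 0.26, while Clock rose by 0.42 and Nr1d2 by 0.24. In the Myc and Max network 4 of 14 fell and 3 rose; Myc itself fell by 0.60.

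The 2 largest rises were in Slc7a11 and Chac1, genes of cystine and glutathione handling. In the list of stress response regulators and amino acid transporters, which holds the transcription factor Atf4 itself, 16 of 20 rose and 1 fell, with a median of 0.70. The 1 that fell was Vldlr. Slc7a11, which imports cystine for glutathione, read 6.26, 6.29 and 6.2 with NC and 8.15, 8.23 and 8.17 with Si6, a 3.82-fold rise (1.94 ± 0.070, adjusted p = 4.19e-11). The NC arrays of Slc7a11 were 0.73 above the hypoxia control, and its second probe set read 0.00. Chac1, which degrades glutathione, went from 7.51, 7.33 and 7.62 to 9.26, 9.42 and 9.27, a 3.55-fold rise. Asns, which makes asparagine, went from 9.87, 9.84 and 9.94 to 11.38, 11.49 and 11.41, a 2.92-fold rise (1.55 ± 0.066). All 3 genes had Si6 arrays wholly above the NC arrays. The amino acid transporters Slc1a4 (1.43 ± 0.090), Slc7a1 (1.42 ± 0.055) and Slc7a5 (1.17) rose. Atf4 mRNA itself rose less, from 8.15, 8.25 and 8.29 to 8.84, 8.88 and 8.80 (0.61, adjusted p = 1.95e-06). The stress factors Ddit3 (0.85), Atf5 (0.81), Trib3 (0.67) and Atf3 (0.51) rose, and Cebpb was at -0.06 and not called.

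**Figure D4:**
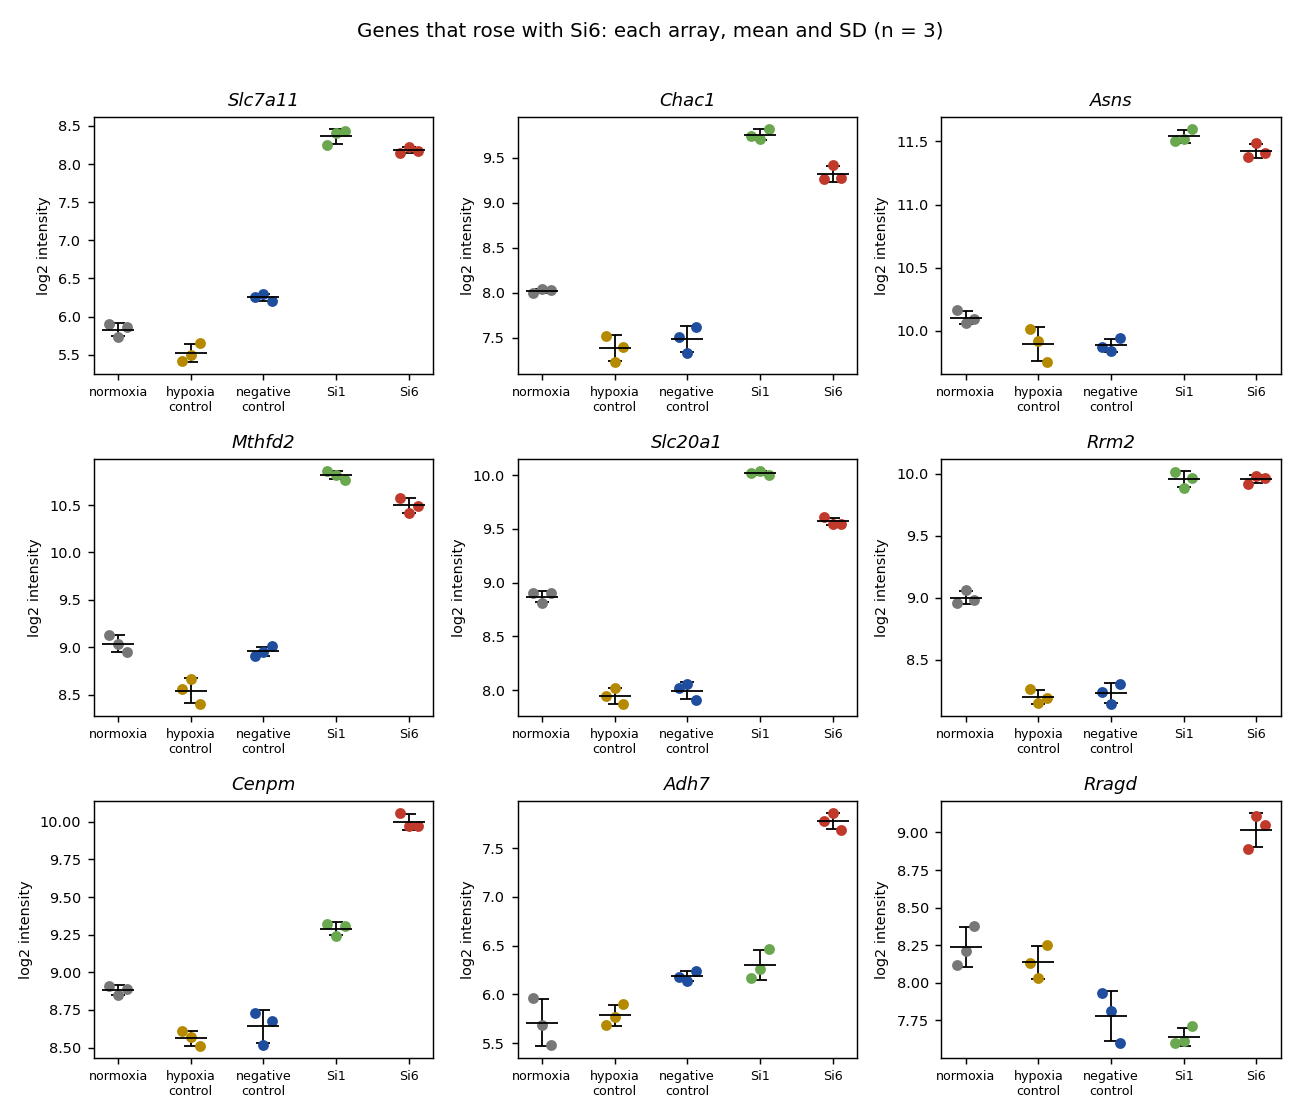
Log2 intensity on each array (points) of 9 genes that rose with Si6, in normoxia, the hypoxia control, the negative control, Si1 and Si6; bars are the mean and SD of 3 arrays, and axes do not start at 0. The 3 Si6 arrays lie above the 3 NC arrays in each panel, at 8.15 to 8.23 against 6.2 to 6.29 for Slc7a11; for Adh7 and Rragd the Si1 arrays stay near NC.

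Enzymes that charge tRNAs rose almost without exception: 17 of 18 were higher and 0 lower, with a median of 0.53. The glycine enzyme Gars went from 9.81, 9.84 and 9.88 to 11.07, 11.10 and 11.05 (1.23 ± 0.046), and Cars (1.03 ± 0.060), Mars1 (1.02 ± 0.057), Yars (0.92 ± 0.057), Lars (0.84 ± 0.086) and Tars (0.79 ± 0.060) followed. In serine and one-carbon metabolism 9 of 15 rose and 2 fell, with a median of 0.45. The mitochondrial folate enzymes led it, Mthfd2 from 8.91, 8.95 and 9.01 to 10.58, 10.42 and 10.49 (1.54 ± 0.071) and Shmt2 at 1.48 ± 0.067. Aldh18a1 of proline synthesis rose by 1.09, Psat1 by 0.72, and the cytosolic Mthfd1 by 0.71 and Shmt1 by 0.55. Phgdh, which starts serine synthesis, was at -0.02 and did not pass the test. Among 18 genes of purine and pyrimidine synthesis, 9 rose and 1 fell, with a median of 0.29, including the CTP synthase Ctps (0.85 ± 0.060), Prps1 (0.74 ± 0.19), Gart (0.73 ± 0.056) and Cad (0.65 ± 0.067); both further probe sets of Gart read -0.06.

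All 32 DNA replication genes rose, or 31 after a second quantile normalization, with a median of 0.65. Rrm2, the ribonucleotide reductase subunit that supplies deoxynucleotides, went from 8.24, 8.14 and 8.30 to 9.92, 9.98 and 9.97, a 3.31-fold rise (1.73 ± 0.057, adjusted p = 1.84e-11); its second probe set was at 0.11 and not called. The helicase subunit Mcm2 went from 8.94, 8.97 and 9.08 to 10.11, 9.97 and 10.01 (1.03 ± 0.065). Gins3 rose by 1.12, the chromatin assembly subunit Chaf1b by 0.99, the ligase Lig1 by 0.92 and the polymerase Pole by 0.85 (-0.05 by a second probe set). NC already lay above the hypoxia control in 25 of these genes, by a median of 0.48 (7.8% of all genes were higher and 7.51% lower in that comparison), so that the rise with Si6 was larger against the hypoxia control, with 32 higher and a median of 1.13. Against normoxia 31 of the 32 were higher with Si6, by a median of 0.54. Of 21 mitosis genes 12 rose and 1 fell, with a median of 0.19, among them Birc5 (0.52 ± 0.077), Mad2l1 (0.47 ± 0.065) and Top2a (0.41 ± 0.059). The centromere protein Cenpm, among the largest rises of all genes, was at 1.36 ± 0.059. All 21 mitosis genes were higher with NC than in the hypoxia control (median 0.72), and all 21 were higher with Si6 than in the hypoxia control (median 0.92).

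Nuclear genes of the mitochondrion rose by small amounts in large numbers. Of 30 respiratory chain and ATP synthase subunits, 27 rose and 0 fell, with a median of 0.40, led by Ndufa4 (0.86 ± 0.067), Cyc1 (0.80 ± 0.061), Sdhb (0.73 ± 0.061) and cytochrome c, Cycs (0.66 ± 0.074). Of 16 citrate cycle genes 12 rose and 0 fell, with a median of 0.31, led by Idh3a (0.87 ± 0.054), citrate synthase Cs (0.80 ± 0.066) and pyruvate carboxylase Pcx (0.69 ± 0.079). Of 32 genes of the mitochondrial ribosome and protein import, 21 rose and 0 fell, with a median of 0.28, led by Mrps18b (0.60 ± 0.063) and the chaperonin Hspd1 (0.57 ± 0.052). Of 24 ribosome biogenesis genes 17 rose and 1 fell, with a median of 0.31, with Wdr12 at 0.68 ± 0.068, Wdr75 at 0.61 ± 0.076 and Ddx21 at 0.59 ± 0.059; the one that fell was Myc. A second probe set of Ddx21 was at 0.14.

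Some at least 2-fold differences between Si6 and NC were in genes that hypoxia did not move the other way. Of genes at least 2-fold lower with Si6, 26 were not raised by hypoxia. They include Txnip, the arrestin that limits glucose uptake, which went from 11.81, 11.83 and 11.85 to 10.66, 10.54 and 10.52 (-1.25) and differed from normoxia by 0.10 in hypoxia, not past the test. Against the hypoxia control Txnip was at -1.19. The inflammatory protease Casp1 was at -1.35 against NC and -1.20 against the hypoxia control, and the receptor Lrp1 at -1.01 and -1.10. With Si1 against NC, Casp1 was at -1.63, but Lrp1 was at -0.09 and did not pass the test. Lrp1 differed between the siRNAs (Si6 minus Si1 -0.92, limma adjusted p = 5.82e-08). For others the fall was smaller or missing against the hypoxia control: the collagen Col12a1 was at -1.54 and -0.53, with NC 1.01 above the hypoxia control, the transcription factor Etv5 at -1.10 and -0.64, and the integrin Itga3 at -1.02 and -0.05 (adjusted p = 0.677), with NC 0.97 above the hypoxia control. Of genes at least 2-fold higher, 13 were not lowered by hypoxia. Among these, the alcohol and retinol dehydrogenase Adh7 went from 6.18, 6.14 and 6.24 to 7.78, 7.86 and 7.69 (1.59 ± 0.11, adjusted p = 2.22e-08), the lysosomal GTPase Rragd rose by 1.24 and the nerve growth factor receptor Ngfr by 1.26. The ribosome assembly factor Pno1 (1.47 ± 0.076) and Prl2c5 (1.36 ± 0.15), among the 15 largest rises, were not lowered by hypoxia either. Other genes among the 15 largest rises were lowered by hypoxia. Of these, the phosphate importer Slc20a1 went from 8.02, 8.06 and 7.91 to 9.61, 9.55 and 9.55. The mitochondrial protein Rtn4ip1 rose by 1.59 ± 0.079. The nucleotide hydrolase Dnph1 rose by 1.35 ± 0.066 and was at -1.065 in the hypoxia control against normoxia.

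Pigment cell genes moved in both directions with Si6 against NC. Of 19 melanin and melanosome genes, 8 rose (42.1%) and 2 fell (10.5%), with a median of 0.14. The enzymes of melanin synthesis were at -0.12 for Tyr and 0.03 for Tyrp1, neither past the test, and at 0.24 for Dct, which passed. The master regulator Mitf (-0.03) and Sox10 (-0.09) did not pass the test. Mlana (0.83 ± 0.086), the organelle factor Hps4 (0.77 ± 0.065), the melanosomal transporter Slc45a2 (0.76 ± 0.066), Rab27a, which ties melanosomes to their motor (0.51 ± 0.075), and the amyloid fibre protein Pmel (0.42 ± 0.058) rose. Of 14 lineage receptors and transcription factors, 5 rose and 5 fell (35.7% each), with a median of -0.05. The stem cell factor receptor Kit went from 7.82, 7.88 and 7.70 to 8.94, 8.99 and 8.80 (1.11 ± 0.11), the endothelin receptor Ednrb from 8.32, 8.27 and 8.19 to 9.24, 9.34 and 9.25 (1.01 ± 0.10), and Irf4 rose by 0.94. Tfap2a fell by 0.68 and Erbb3 by 0.42.

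The rises of pigment cell genes depend on the control. NC lay below the hypoxia control in 14 of the 19 melanin genes (median -0.56) and in 11 of the 14 lineage genes (median -0.32). Against the hypoxia control, Si6 was higher in 1 melanin gene and lower in 10 (median -0.26), and lower in 8 lineage genes. Ednrb was 1.24 lower with NC than in the hypoxia control, and with Si6 it was at -0.22 against the hypoxia control; Rab27a was at -0.76, Irf4 at -0.42 and Mlana at -0.09 in that comparison.

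Interferon response genes fell with Si6 in 14 of 20 cases and 1 rose, with a median of -0.39. The exonuclease Isg20 fell by 1.52, the RNA sensor Ddx58 from 10.25, 10.20 and 10.18 to 9.51, 9.50 and 9.47 (-0.72 ± 0.078), Oasl2 by 0.63 and Ifit1 by 0.62, and Cxcl10 rose by 0.54. NC lay above the hypoxia control in 10 of these genes (median 0.30; Ddx58 by 1.03). Against the hypoxia control, 4 of the 20 were higher and 2 lower with Si6, with a median of 0.03, and Ddx58 was 0.31 higher. Of 18 p53 target genes 3 rose and 5 fell against NC, with a median of -0.06; with median centring 5 rose and 3 fell. The kinase Plk2 fell by 1.40, Eda2r by 0.31, and Btg2 and Aen rose by 0.41 each, while Cdkn1a (0.15) and Mdm2 (0.01) did not pass the test. NC was above the hypoxia control in 12 p53 targets (median 0.47) and Si6 was above it in 12 (median 0.48); Eda2r was 0.92 above it with Si6. Why NC and the hypoxia control differ was not tested.

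**Figure D5:**
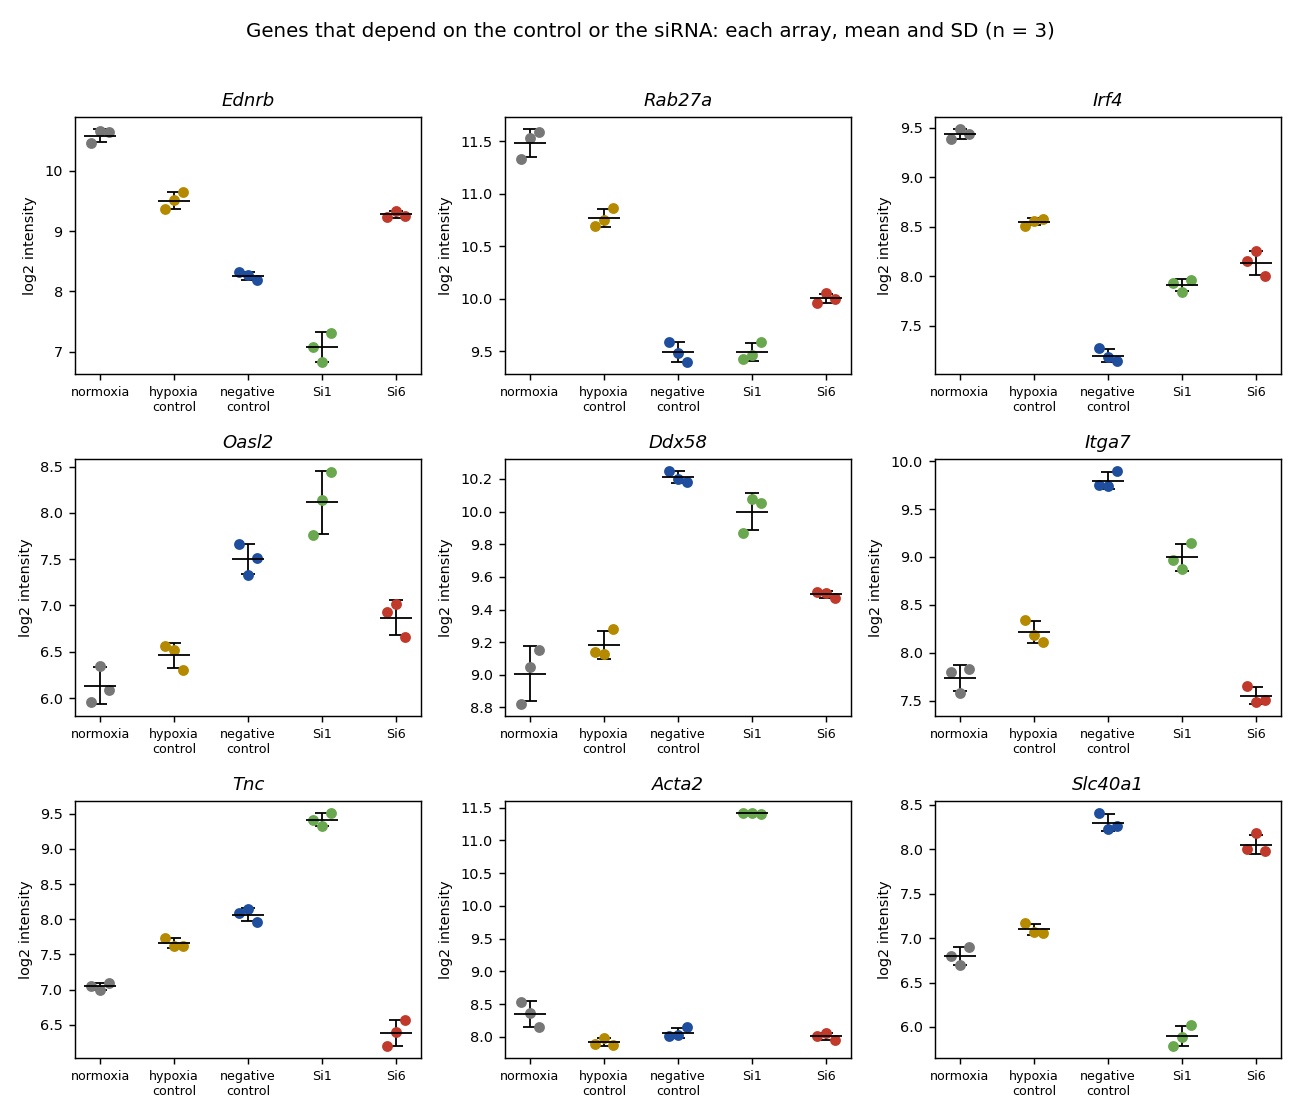
Log2 intensity on each array (points) of 9 genes whose level differs between the 2 hypoxic controls or between the 2 siRNAs, in normoxia, the hypoxia control, the negative control, Si1 and Si6; bars are the mean and SD of 3 arrays, and axes do not start at 0. For Ednrb the Si6 arrays, at 9.24 to 9.34, lie above the NC arrays at 8.19 to 8.32 and close to the hypoxia control; for Acta2 the Si1 arrays, at 11.40 to 11.42, lie above all other arrays.

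Si1 targets the same mRNA, and its own difference from NC uses the same 3 NC arrays, so the values are set side by side and the siRNAs are tested against each other directly. Hif1a was at -1.70 with Si6 and -1.99 with Si1, and was 0.28 higher with Si6 (adjusted p = 0.00118). Between the siRNAs, 6198 genes differed, 2977 higher with Si6 (13.4%) and 3221 lower (14.5%). Of the 128 strongly hypoxia-raised genes, 37 were higher with Si6 (28.9%), 38 lower (29.7%) and 53 did not pass the test, with a median of 0.01. Bnip3 was at -3.61 with Si6 and -3.92 with Si1, Stc1 at -4.02 and -3.60, and Chac1 at 1.83 and 2.27. Pdk1 was lowered less by Si6, at -2.62 and -3.38 (Si6 minus Si1 0.76, adjusted p = 1.3e-05), as was Pfkl (0.86 between the siRNAs) and Tet2 (0.84). Apln was lowered more by Si6, at -2.03 and -0.81 (Si6 minus Si1 -1.22, adjusted p = 1.71e-07), as were Fn1 (-0.73 between the siRNAs) and Elobl, at -1.85 with Si6 and 0.15 with Si1.

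Acta2, Plaur, Tnc and Ednrb were among the largest differences between the siRNAs. Smooth muscle actin Acta2 was at -0.06 with Si6 and 3.35 with Si1 against NC, and the urokinase receptor Plaur at -0.09 and 3.13, so that Si6 minus Si1 was -3.40 and -3.21. The matrix protein Tnc fell with Si6, from 8.09, 8.15 and 7.96 to 6.2, 6.40 and 6.57, and was 1.35 above NC with Si1. In the list of dedifferentiation genes that holds Tnc, 4 of 17 fell and 1 rose with Si6; Thbs1 fell by 1.38 against NC and was at -0.22 against the hypoxia control. Ednrb, which hypoxia lowered by 1.08, was 2.20 higher with Si6 than with Si1 (adjusted p = 6.5e-10), Kit 1.09 higher and Mitf 0.90 higher. The iron exporter Slc40a1 was at -0.25 with Si6 and -2.40 with Si1. Adh7 was at 1.59 and 0.11 (Si6 minus Si1 1.48, adjusted p = 4.22e-08) and Rragd at 1.24 and -0.14. By list, Si6 was below Si1 in 21 of 24 ribosome biogenesis genes (median -0.49), 15 of 18 p53 targets (median -0.68) and 13 of 20 interferon genes, and above it in 15 of 19 melanin genes (median 0.51), 9 of 14 lineage genes and 13 of 21 mitosis genes. Myc was 0.91 lower with Si6 than with Si1 (adjusted p = 2.8e-08).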

How the data were processed

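Gene expression was measured on single-colour arrays, 3 per group in 5 groups of 1 cell line. The deposited values are log2 intensities per probe set; per the submitters' processing notes they were made with RMA and Partek, with no versions stated there. Of 41345 probe sets, 23521 had 1 gene symbol in the platform annotation, 1814 several and 16010 none. The brightest probe set by mean over all arrays stood for each of 22180 genes. Group means were fitted over all 15 arrays with limma 3.58.1 in R 4.3.3 (lmFit, eBayes), with Benjamini-Hochberg adjustment over all genes and a threshold of 0.05; the fit was tested on simulated data.

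The comparison, the 32 gene lists (584 of 632 genes measured) and the 7 marker lists were chosen with earlier results of these data known. Genes were named by rule: Hif1a, the 15 largest rises and 15 largest falls whose arrays do not overlap, up to 6 per list by size, the 8 largest differences each way between the siRNAs, the 8 strongest in opposite directions, the 10 hypoxia-raised genes least lowered, the 10 lowest against normoxia, and the genes nearest the 2-fold limit. Other genes, such as Itga7, Slc2a1, Gapdh, Atf4, Mitf, Tyr and Txnip, and the genes in the plots, were named after their values were seen. The alternatives tried were the normalization, a filter on dim genes, the probe set, the moderation, array weights, the set of arrays fitted, a block on the replicate letter, the hypoxia control in place of NC, and leaving out each array.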

Additional observations from a re-analysis of the deposited data

Results flagged for a closer look

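Of the 22180 genes, 540 passed the test in opposite directions with the 2 siRNAs against NC, and the siRNAs also differed in the direct test. Of these, 292 were higher with Si6 and lower with Si1, and 248 the reverse. The 8 of smallest adjusted p in that direct test are given, as log2 differences; both siRNA comparisons use the same NC arrays. Wincr1, a long noncoding RNA, was at -1.26 with Si6 and 2.20 with Si1, a difference of -3.46. Tnc, a matrix glycoprotein, was at -1.67 and 1.35, a difference of -3.02. Tmem171 was at -0.45 and 2.35, a difference of -2.79. Actg2, a smooth muscle actin, was at -0.26 and 2.33, a difference of -2.58. Car5b, a mitochondrial carbonic anhydrase, was at -1.01 and 0.90, a difference of -1.91. Adamts14, a collagen-processing protease, was at -0.46 (-0.08 by a second probe set) and 1.30, a difference of -1.76. For Tmem171 and Adamts14 the sign with Si6 turned when the hypoxia control took the place of NC, as given below. Higher with Si6 were Ogn, a small matrix proteoglycan, at 0.27 and -1.93 (difference 2.20), and the kinase Sgk3, at 0.62 and -1.18 (difference 1.80). With 1 array left out, the Si6 value of Actg2 ran from -0.25 to -0.18 and that of Ogn was 0.20 where each no longer passed the test. Groups of 3 arrays are too small for the check for single outlying samples.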

How the results depend on the processing

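The count of changed genes, 6400, ran from 5503 to 6747 over all alternatives and from 5503 to 5925 with 1 array left out. The hypoxia-raised genes lowered by Si6, 118, ran from 106 to 123. The count of genes changed at least 2-fold, 225, was 416 with the hypoxia control in place of NC. That exchange turned the sign of 15 of the 234 named genes it could be applied to, whether or not the new value passed the test. These were Mlana (-0.09), Rab27a (-0.76), Pmel (-0.26), Ednrb (-0.22), Irf4 (-0.42), Eda2r (0.92), Ddx58 (0.31), Oasl2 (0.41), Herpud1 (-0.06), Scd1 (-0.04), Tfrc (0.04), Slc40a1 (0.95), Ago2 (-0.08), Tmem171 (0.05) and Adamts14 (0.35). Of these, Mlana and Ednrb did not pass against the hypoxia control (limma adjusted p = 0.518 and 0.125), while Pmel did. A further 21 kept their direction but no longer passed the test, and 198 kept direction and call. The cause was not tested. Of 252 named-gene results, 213 kept their call under every alternative run. Slc40a1 lost it without NC array a, Si6 array a or Si6 array c. The labels do not say whether the letters a, b and c pair the samples. Deviations of same-letter arrays from their group means correlated at -0.098, 0.073 and 0.145, and those of different letters at -0.189 to 0.136. With 3 arrays per group, such values cannot decide whether a letter marks a shared day or batch. With the letter as a replicate block, 6216 genes changed and no named gene changed its call. With 3 arrays per group and a median standard error of 0.0756, small differences were near what these arrays can resolve.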

Other observations

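Several metabolic lists not described above also moved with Si6. Of 15 cholesterol synthesis and uptake genes 10 rose and 2 fell (median 0.29), with the reductase Dhcr7 going from 9.62, 9.68 and 9.58 to 10.27, 10.29 and 10.23 (0.64 ± 0.050) and Msmo1 at 0.49 ± 0.055. Of 21 genes of fatty acid synthesis and oxidation 8 rose and 0 fell (median 0.15), led by the gatekeeper of mitochondrial import, Cpt1a (0.90 ± 0.055), and the dehydrogenase Acadl (0.69 ± 0.060). Set against the hypoxia control, 7 of the 21 were higher and 2 lower with Si6 (median -0.03). Of 20 genes of the endoplasmic reticulum 11 rose and 4 fell (median 0.22). The oxidase Ero1a, a hypoxia-responsive gene, fell by 0.97, and Creld2 rose by 0.70. Of 17 Nrf2 antioxidant genes 9 rose and 3 fell (median 0.15); Gclc, which makes the glutathione precursor, went from 8.96, 8.90 and 8.75 to 9.82, 9.84 and 9.76 (0.94 ± 0.059), Txnrd1 rose by 0.61 and the heme oxygenase Hmox1 fell by 0.78.

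Iron genes split, with 3 of 12 higher and 5 lower. The copper oxidase Cp went from 9.93, 9.90 and 9.61 to 7.55, 7.82 and 7.47, a 4.59-fold fall from NC; NC lay 1.09 above the hypoxia control, and the fall from the latter was 1.10. The iron importer Slc11a2 rose by 0.91 and the ferrireductase Steap3 by 0.69. The transferrin receptor Tfrc fell by 0.46 from NC and was at 0.04 against the hypoxia control. Among 20 mTORC1 regulators 8 rose and 3 fell (median 0.16); the inhibitor Deptor went from 9.95, 10.03 and 9.94 to 8.47, 8.39 and 8.33 (-1.57 ± 0.059), and the arginine sensor Castor2 rose by 0.75. Of 20 autophagy and lysosome genes 11 rose and 6 fell (median 0.14), with Atg5 at 0.94 ± 0.063 and Atg14 at -0.57 ± 0.090. This balance depends on the control: NC lay below the hypoxia control in 7 of the 20 and above it in 0. With Si6, 4 of the 20 were higher and 7 lower than in the hypoxia control (median 0.02). Of 11 genes of the RNA interference machinery 6 rose and 0 fell (median 0.23), with Ago3 at 0.51 ± 0.096, Tarbp2 at 0.49 ± 0.082 and Dicer1 at 0.40 ± 0.051. Set against the hypoxia control, 5 of the 11 were higher and 1 lower with Si6 (median 0.07).

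Of 50 second probe sets, belonging to 42 of the genes named or listed, 38 belonged to genes that passed the test. Of these 38, 11 gave the same call, 26 did not pass the test and 1, of Mrpl12, passed in the other direction (0.47 by the brightest probe set and -0.23 by the other). By rule a second probe set is the dimmer one. Some of the 26 were far dimmer, such as those of Pdk1 (mean 3.45 against 8.45) and Rrm2 (3.47 against 9.07). Others were nearly as bright, such as those of Car9 (7.33 against 7.8) and Fen1 (6.72 against 6.78). Keap1, the sensor that holds Nrf2 in check, was at 0.15 and not called by its brightest probe set, while another was at -1.95.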
